A study of Homo sapiens with 4 samples.

Results

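The DCUN1D family comprises 5 human genes, DCUN1D1 to DCUN1D5, and was followed here in DU145 cells carrying an shRNA against its founding member, DCUN1D1. Its members on the array are the probe sets whose platform annotation names exactly 1 gene, that gene being one of the 5. A probe set pools several short probes against the same transcript into a single log2 signal. This gave 15 probe sets of the 54613 for transcripts (40914 of which name 1 gene): 6 for DCUN1D1, 1 for DCUN1D2, 2 for DCUN1D3, 3 for DCUN1D4 and 3 for DCUN1D5. DU145 is an established line from a human prostate carcinoma that grows without androgen. It was measured on 4 single-channel arrays, 2 of cells with the shRNA against DCUN1D1 (shDCUN1D1) and 2 of control cells with an shRNA against GFP (shGFP), a sequence that human cells lack. Both groups carried a lentiviral shRNA and were grown in DMEM with fetal bovine serum, and the treatment record also names DMSO without saying which cells received it. The records speak of stably transduced cells and biological duplicates, whereas the methods describe harvest within days of infection and more than 1 shRNA against DCUN1D1. The sources used here do not say which shRNA each knockdown array carried, nor whether the duplicates were separate infections, so the p-values measure only the spread between these arrays.

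NEDD8 is a small ubiquitin-like protein that is joined to cullins, the scaffolds of the largest class of ubiquitin ligases, and thereby activates them. An E1 enzyme (NAE1 with UBA3) activates NEDD8, an E2 (UBE2M or UBE2F) carries it, and RBX1 or RNF7 brings the E2 to the cullin. The DCUN1D proteins act beside the RING subunit as a co-E3: their shared C-terminal domain binds both the cullin and the acetylated N terminus of the E2 and so speeds the transfer. They differ at the N terminus. DCUN1D1 and DCUN1D2 carry a ubiquitin-binding UBA domain, DCUN1D3 is lipid-modified and sits at membranes, and DCUN1D4 and DCUN1D5 are largely nuclear. DCUN1D1 is also known as SCCRO, an oncogene first described in squamous cell carcinoma.

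Most probe sets on these arrays gave little signal. The array carries 23 nonspecific control sets, which match no human transcript and differ in their number of G or C bases. The set of 20 such bases read 2.48 and 2.51 in shDCUN1D1 replicates 1 and 2, and 2.97 and 3.30 in shGFP replicates 1 and 2. Only 15.7% and 12.7% of transcript probe sets exceeded it in the shDCUN1D1 arrays, and 7.83% and 5.38% in the shGFP arrays. The nonspecific sets themselves were dimmer with the shRNA against DCUN1D1, all 23 by their means and 20 of them with both knockdown arrays below both controls, by a median of −0.29 log2. shDCUN1D1 replicate 1 stood apart, with 1551 probe sets more than 2 log2 above every other array, against 0 in replicate 2 and 0 and 8 in the shGFP arrays. The epithelial origin of DU145, a carcinoma line, was matched by part of the epithelial markers. KRT8, an epithelial keratin, exceeded the nonspecific set of 20 G or C bases in all arrays on 1 of its 2 probe sets, KRT18 did so in shDCUN1D1 replicate 1 alone (7.62, against 1.63 to 1.69 in the others), and EPCAM and CDH1 did so in none. Leukocyte, endothelial and fibroblast markers (PTPRC, PECAM1 and COL1A2, 13 probe sets) did so in none either, and the prostate kallikreins KLK2 and KLK3 on 1 of 7 probe sets.

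DCUN1D1, the target of the shRNA, was lower in the knockdown arrays on 4 of its 6 probe sets and higher on 2, and no probe set passed either call. Its brightest probe set, 222678_PM_s_at, read 1.60 and 1.45 in the shDCUN1D1 arrays and 2.55 and 1.99 in the shGFP arrays. Both knockdown arrays thus lay below both controls, which differed from each other by 0.56. The log2 fold change, shDCUN1D1 minus shGFP, was −0.75 (standard error, SE, 0.26, with a 90% interval of −1.26 to −0.23), which on the linear scale is a difference of −40.4% in signal. In bulk RNA, fewer cells with a transcript and less of it per cell cannot be told apart. Over all probe sets its adjusted p was 0.616 by limma with Benjamini–Hochberg adjustment. The lower 90% bound of its fold change was 1.18, short of the 1.2 above which a probe set is here said to be past the fold bound, the form of call that the methods give.

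Probe set 238879_PM_at was also lower in both knockdown arrays. It read 1.07 in both shDCUN1D1 arrays, against 1.37 and 1.71 in the shGFP arrays, a log2 difference of −0.47 (SE 0.15, 90% interval −0.76 to −0.18, adjusted p = 0.616 by limma). The knockdown arrays differed by 0.01 here, and the lower bound of the fold, 1.13, was again short of 1.2. Of the other sets, 222679_PM_s_at read 1.06 and 0.90 in the shDCUN1D1 arrays and 1.09 and 1.26 in the shGFP arrays, a log2 fold change of −0.19 (90% interval −0.39 to 0.00). Set 240781_PM_x_at, whose suffix marks probes that may bind other transcripts, read 0.95 and 1.04 with the shRNA against DCUN1D1 and 1.11 and 1.10 in shGFP, a log2 fold change of −0.11 (90% interval −0.25 to 0.04). Both kept their knockdown arrays below the controls, but at levels where the dimmest nonspecific sets also lie. Every DCUN1D1 probe set, the brightest included, lay under the nonspecific set of 20 G or C bases in every array. The G or C content of the DCUN1D1 probes is not known here, and nonspecific sets with fewer such bases read lower. In the shGFP arrays the set of 14 read 1.56 and 1.73 and that of 17 read 2.19 and 2.34.

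The other DCUN1D1 probe sets did not separate the groups. Set 218583_PM_s_at read 1.88 and 1.41 in the shDCUN1D1 arrays and 1.43 and 1.60 in the shGFP arrays, so that both controls fell between the knockdown arrays (log2 fold change 0.12, 90% interval −0.30 to 0.54). Set 242428_PM_at read 1.30 and 1.44 in the shDCUN1D1 arrays and 1.16 and 1.45 in the shGFP arrays (log2 fold change 0.07, 90% interval −0.23 to 0.36). The 6 probe sets of the gene thus did not share a direction, and 4 of the 6 intervals included 0.

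**Figure D1:**
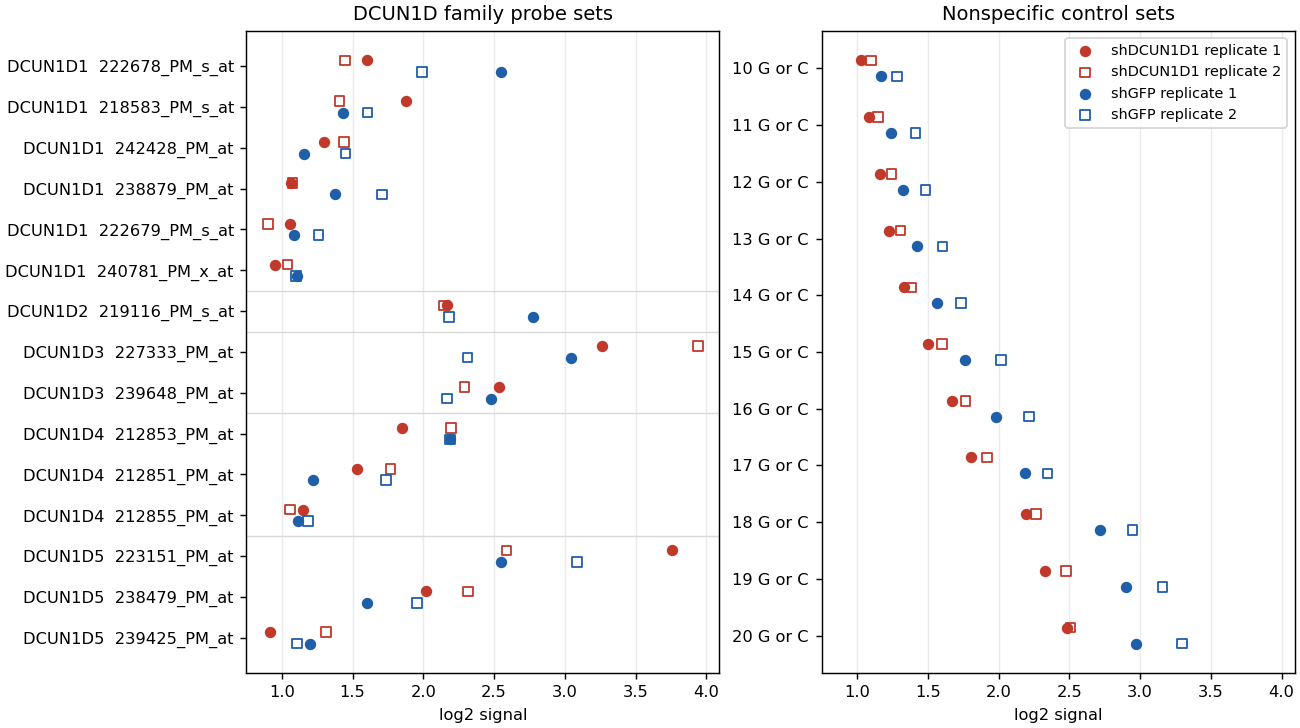
Log2 signal of the 15 DCUN1D family probe sets (left panel) and of nonspecific control sets with 10 to 20 G or C bases (right), with 1 point per array. Red marks shDCUN1D1 and blue shGFP, with the replicates numbered 1 filled and those numbered 2 open. On 222678_PM_s_at both knockdown arrays (1.60 and 1.45) lie below both controls (2.55 and 1.99), and every control set shown is dimmer in both knockdown arrays too.

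Against background measured in the same arrays, 3 of the 6 DCUN1D1 probe sets had a more negative difference than the nonspecific controls and 3 did not. Each probe set was set beside the 3 nonspecific sets nearest to it in mean signal. For 222678_PM_s_at, those of 15 to 17 G or C bases differed by −0.41 to −0.34 between the groups. Its −0.75 minus their mean was −0.37. Its difference was below that of all 23 nonspecific sets, the lowest of which was −0.68. For 238879_PM_at, the nearest sets differed by −0.25 to −0.20, and its −0.47 minus their mean was −0.25. For 222679_PM_s_at, −0.19 minus the mean of its nearest sets was −0.04. Set 240781_PM_x_at lay above its neighbours, and 218583_PM_s_at and 242428_PM_at lay 0.42 and 0.29 above theirs. Over all transcript probe sets, 13.3% lay below their 3 nearest nonspecific sets and 80.3% above them. The part of the nonspecific signal in these differences was not tested.

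**Figure D2:**
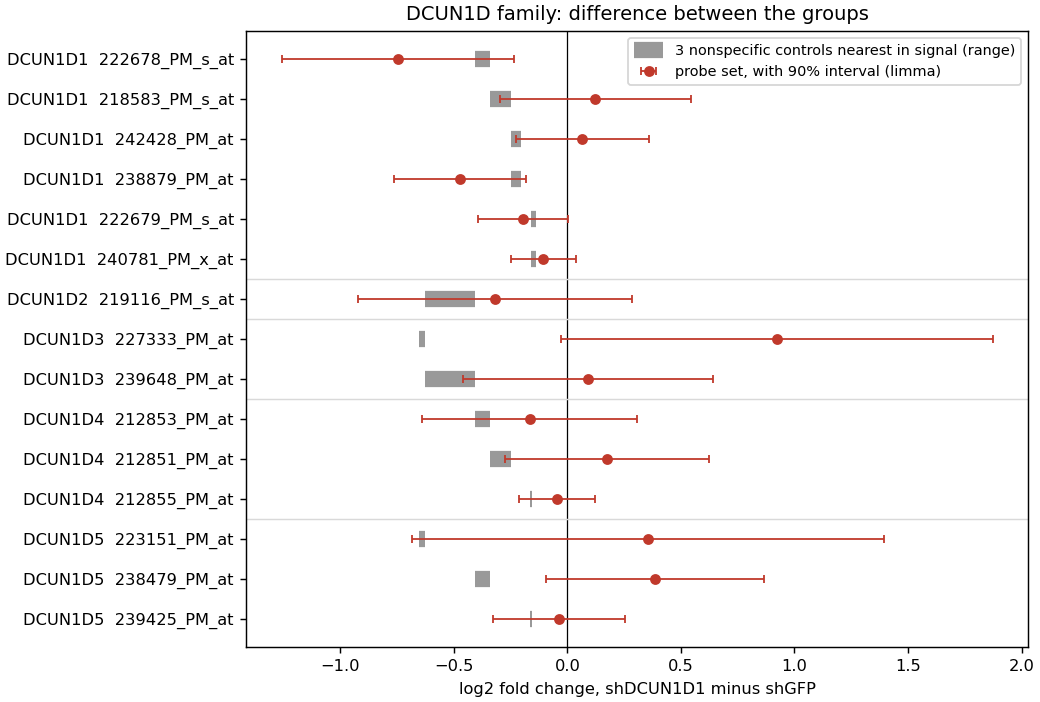
Log2 fold change (shDCUN1D1 minus shGFP, horizontal axis) of each DCUN1D family probe set as a red point, with its 90% interval from limma, and the range of the differences of the 3 nonspecific control sets nearest in signal as a grey bar. Among the DCUN1D1 sets, 222678_PM_s_at (−0.75) and 238879_PM_at (−0.47) lie left of their bars, while all 9 probe sets of the other members lie right of theirs.

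As the mean of its 6 probe sets, DCUN1D1 read 1.31 and 1.22 in the shDCUN1D1 arrays and 1.45 and 1.52 in the shGFP arrays. The groups did not overlap, and their difference was −0.22 (SE 0.10, 90% interval −0.42 to −0.02, adjusted p = 0.622 over 19774 genes by limma). With the arrays centred on their nonspecific controls, which raises the median difference of all probe sets by 0.29, the difference was 0.07. The brightest set (−0.45) and 238879_PM_at (−0.18) remained lower under that centring, while 222679_PM_s_at and 240781_PM_x_at turned to 0.10 and 0.19. With each array left out in turn, the brightest set lay between −1.02 (without shGFP replicate 2) and −0.47 (without shGFP replicate 1). Set 238879_PM_at lay between −0.64 (without shGFP replicate 1) and −0.30 (without shGFP replicate 2). In each such fit, the lone array of a group is assumed to vary like those of the other group.

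**Figure D3:**
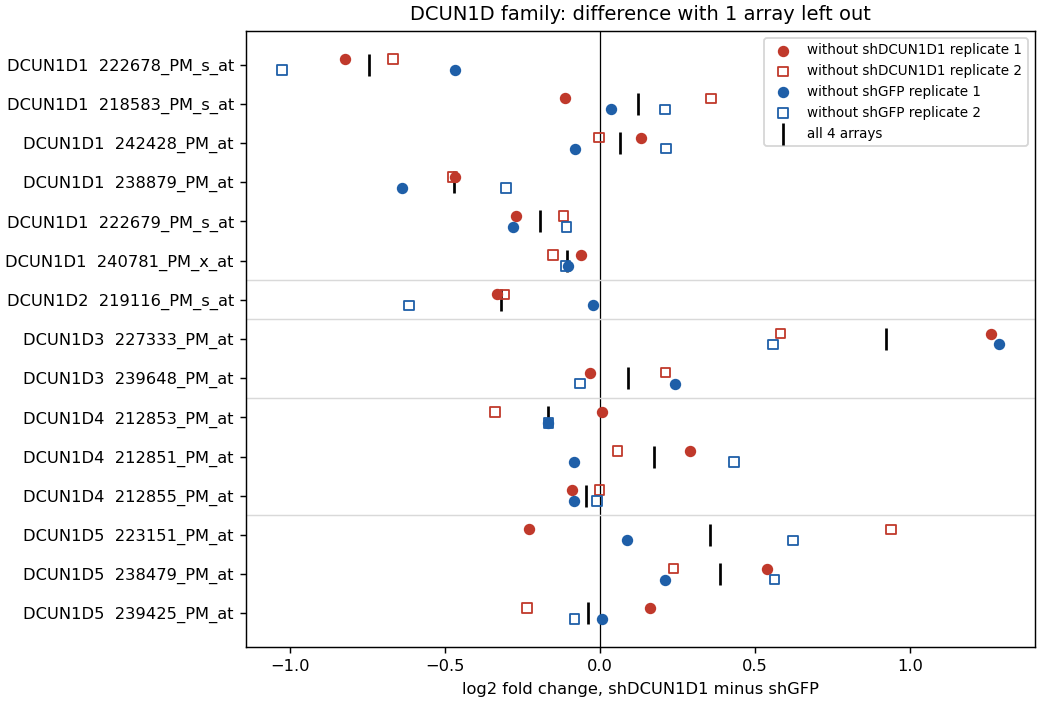
Log2 fold change (shDCUN1D1 minus shGFP, horizontal axis) of each family probe set with 1 array left out: without a knockdown array in red, without a control array in blue, replicate 1 filled and replicate 2 open, and all 4 arrays as black ticks. DCUN1D1 222678_PM_s_at stays at −0.47 or lower in each case, and DCUN1D5 223151_PM_at ranges from −0.23 to 0.94.

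DCUN1D2, the closest relative of DCUN1D1, is represented by 219116_PM_s_at alone. It read 2.17 and 2.14 in the shDCUN1D1 arrays and 2.77 and 2.18 in the shGFP arrays. The knockdown arrays lay below both controls, by only 0.01 below shGFP replicate 2, and the controls differed by 0.59. The log2 fold change was −0.32 (SE 0.30, 90% interval −0.92 to 0.28, adjusted p = 0.709 by limma), and −0.02 without shGFP replicate 1. Nonspecific sets of like signal differed by −0.63 to −0.41.

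DCUN1D3, the membrane-bound member, had the largest positive difference of the family. Its brighter probe set, 227333_PM_at, read 3.26 and 3.94 in the shDCUN1D1 arrays and 3.04 and 2.31 in the shGFP arrays, so that both knockdown arrays were above both controls. The log2 fold change was 0.92 (SE 0.48, 90% interval −0.03 to 1.87, adjusted p = 0.616 by limma), a value not past the fold bound. It is the family probe set most often above the nonspecific set of 20 G or C bases, in 3 of 4 arrays. Without shDCUN1D1 replicate 1 the difference was 1.26. Without shGFP replicate 2, the dimmest array for this set, it was 0.56. The nearest nonspecific sets went the other way, by −0.65 to −0.63.

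The second DCUN1D3 probe set did not show this difference. Set 239648_PM_at read 2.53 and 2.29 in the shDCUN1D1 arrays and 2.48 and 2.17 in the shGFP arrays. The groups overlapped, with a log2 fold change of 0.09 (90% interval −0.46 to 0.64), and the sign changed without shDCUN1D1 replicate 1 (−0.03) and without shGFP replicate 2 (−0.06). As the mean of both sets the difference was 0.51 (90% interval −0.13 to 1.14, adjusted p = 0.622 by limma).

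DCUN1D4, one of the nuclear members, gave no single direction over its 3 probe sets. Set 212853_PM_at read 1.85 and 2.19 in the shDCUN1D1 arrays and 2.19 in both shGFP arrays (log2 fold change −0.17, 90% interval −0.64 to 0.31). Set 212851_PM_at read 1.53 and 1.77 in the shDCUN1D1 arrays and 1.22 and 1.74 in the shGFP arrays (log2 fold change 0.17, 90% interval −0.27 to 0.62). The dimmest, 212855_PM_at, lay between 1.06 and 1.18 in all arrays (log2 fold change −0.05, 90% interval −0.21 to 0.12). The groups overlapped on all 3, and the mean over them differed by −0.01 (90% interval −0.30 to 0.28, adjusted p = 0.982 by limma), with a sign that depended on the scaling.

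DCUN1D5, the other nuclear member, was higher on 2 of its 3 probe sets, neither past the bound. Set 238479_PM_at read 2.02 and 2.32 in the shDCUN1D1 arrays and 1.60 and 1.95 in the shGFP arrays, with both knockdown arrays above both controls. Its log2 fold change was 0.39 (SE 0.24, 90% interval −0.09 to 0.87, adjusted p = 0.618 by limma), and 0.21 to 0.56 with 1 array left out. The brightest set, 223151_PM_at, read 3.76 and 2.59 in the shDCUN1D1 arrays and 2.55 and 3.08 in the shGFP arrays. Its log2 fold change of 0.36 rested on shDCUN1D1 replicate 1, without which it was −0.23. Set 239425_PM_at read 0.92 and 1.31 in the shDCUN1D1 arrays, and both controls lay between them, the lower at 1.11 (log2 fold change −0.04, 90% interval −0.33 to 0.25). The mean of the 3 sets differed by 0.24 (90% interval −0.16 to 0.63, adjusted p = 0.663 by limma).

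Over the whole family, 0 of 15 probe sets passed the fold bound in either direction, against 1.04% higher (569) and 2.47% lower (1348) among all 54613 transcript probe sets. With the arrays centred on their nonspecific controls, 3476 of all probe sets were higher past the bound and 456 lower, and still 0 of the 15. By adjusted p under 0.05, limma called 0 of 54613 probe sets (0%), and the adjusted p of the members lay between 0.616 and 0.944. At an unadjusted p under 0.05 it had 1128 higher and 3159 lower, and the methods' t-test 952 higher and 3000 lower, of which 1 passed after Benjamini–Hochberg adjustment. Without shDCUN1D1 replicate 2, limma called 2625 probe sets higher and 14 lower by adjusted p, none of them of the family. Of the 15, limma had 2 lower at that unadjusted p (222678_PM_s_at and 238879_PM_at, both DCUN1D1), against 5.78% of all probe sets, and the methods' t-test called 0 of the 15. As gene means, 0 of the 5 members passed the bound, against 0.87% of genes higher and 2.08% lower. An exact two-sided permutation test of 2 arrays against 2 cannot give a p below 0.333.

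For the target and its relatives, the positions of the arrays were set side by side. Both knockdown arrays were below both controls on 4 of 6 DCUN1D1 probe sets and on 1 of 9 sets of the other members, against 26.3% of all probe sets. Both were above on 0 of 6 DCUN1D1 sets and 2 of 9 others, against 16.2%. The median log2 fold change was −0.15 over the DCUN1D1 sets and 0.09 over the others, with −0.02 over all probe sets. All 9 sets of the other members lay above their nearest nonspecific controls, as did 80.3% of all probe sets. Whether the target and the other members differed in their response was not tested, since probe sets of 1 gene are not replicates. On 9 of the 15 sets, at least one gap between replicates of a group was larger than the difference between the groups.

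**Figure D4:**
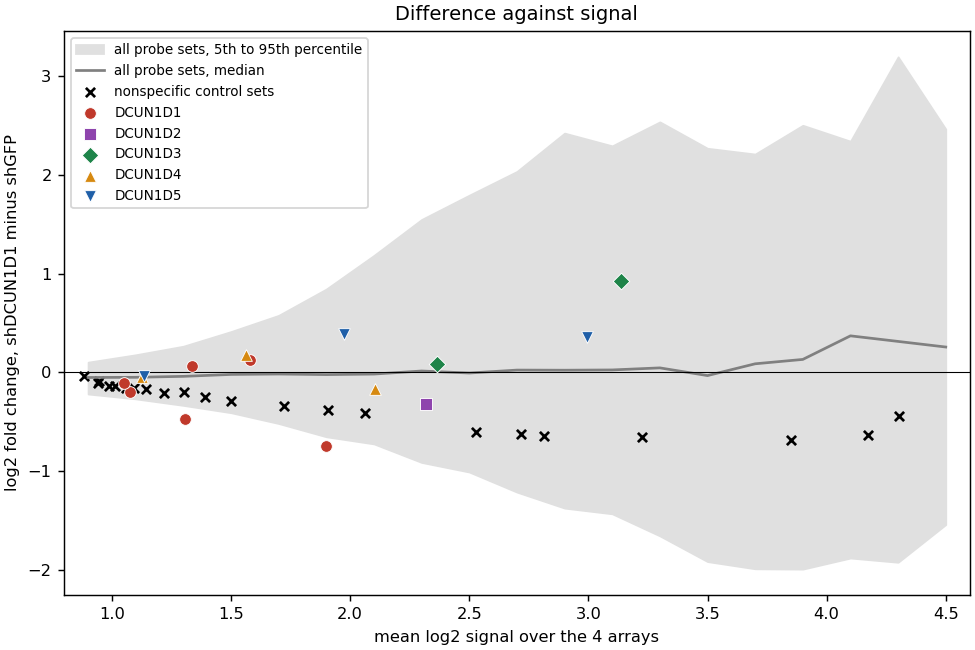
Log2 fold change (shDCUN1D1 minus shGFP, vertical axis) against mean log2 signal over the 4 arrays (horizontal axis) for the family probe sets by gene and for nonspecific control sets (crosses), over the median and the 5th to 95th percentile of all transcript probe sets in bins of signal. DCUN1D1 222678_PM_s_at (−0.75) and 238879_PM_at (−0.47) lie under the 5th percentiles of their bins (−0.65 and −0.33) for signals of 1.9 and 1.3.

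The wider machinery of neddylation had members past the bound in both directions. Of 31 listed genes of neddylation, cullin scaffolds and the COP9 signalosome, which removes NEDD8 from cullins, 30 had a probe set naming them alone, 77 in all. The E2 UBE2M, the main partner of DCUN1D1, had none. Of the 77, 3 were higher past the fold bound (3.90%) and 3 lower (3.90%), against 1.04% and 2.47% of all probe sets, and 0 had an adjusted p under 0.05 by limma (4 higher and 5 lower at an unadjusted p under 0.05). The median log2 fold change was 0.14, against −0.02 over all probe sets, and it was −0.06 without shDCUN1D1 replicate 1, where all probe sets had 0.00. That array was the highest of the 4 for 37 of the 77, against 18.3% of all probe sets.

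Those lower past the bound were GPS1, CUL1 and NUB1. GPS1, a subunit of the COP9 signalosome with 1 probe set, read 2.37 and 2.21 in the shDCUN1D1 arrays and 3.55 and 3.72 in the shGFP arrays. The difference was −1.35 (SE 0.35, adjusted p = 0.616 by limma), and −1.44 to −1.26 with 1 array left out, past the bound each time. The nonspecific sets nearest in signal differed by −0.65 to −0.63, and the GPS1 difference minus their mean was −0.71. CUL1, the scaffold of the SCF ligases, had −1.24 on 238509_PM_at, which lay under the nonspecific set of 20 G or C bases in every array, and 0.32 on its brighter set, 207614_PM_s_at. The nonspecific sets nearest to 238509_PM_at differed by −0.64 to −0.60, and its −1.24 minus their mean was −0.62. Without shGFP replicate 2, 238509_PM_at was not past the bound (1.19). NUB1, which takes NEDD8 to the proteasome, had −1.18 on 1560108_PM_at, a set also under that control in all arrays, and −0.37 to 0.60 on its 6 others. The nonspecific sets nearest to 1560108_PM_at differed by −0.38 to −0.29, and its −1.18 minus their mean was −0.84. It was past the bound with each array left out. The part of the nonspecific signal in these differences was not tested.

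Those higher past the bound were COPS6 and COPS4, further signalosome subunits, and CUL4B, a scaffold of nuclear ligases. COPS6 read 2.75 and 1.98 in the shDCUN1D1 arrays and 1.26 in both shGFP arrays on 213504_PM_at. The difference was 1.11 (SE 0.29, adjusted p = 0.616 by limma), and 0.72 without shDCUN1D1 replicate 1. It was not past the bound without shGFP replicate 1 (1.13) or without shGFP replicate 2 (1.14). The other COPS6 set, 201405_PM_s_at, had 1.46 with all arrays and −0.12 without shDCUN1D1 replicate 1. COPS4 had 0.94 on 218042_PM_at, or 0.59 without shDCUN1D1 replicate 1, and −0.16 on its other set. It was not past the bound without shGFP replicate 2 (0.99). CUL4B had 0.80 on 202214_PM_s_at, with a bound of 1.21, and was past 1.2 only without shDCUN1D1 replicate 2 when 1 array was left out, the other bounds being 0.96 to 1.07. Its 3 other sets had −0.05 to 0.56. Without shDCUN1D1 replicate 2, which leaves replicate 1 as the only knockdown array, COPS6 had 1.49 on 213504_PM_at and COPS4 1.29 on 218042_PM_at.

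Most of the larger positive values rested on a single array. Of 11 machinery probe sets with a log2 fold change above 1, 9 were under 0.5 without shDCUN1D1 replicate 1. The like share among all probe sets was not counted, and that array had 1551 probe sets more than 2 log2 above every other array. NEDD8 itself read 5.75 and 3.26 in the shDCUN1D1 arrays and 3.22 and 2.70 in the shGFP arrays, a log2 fold change of 1.54, and 0.30 without that replicate. UBE2F, the other NEDD8 E2, had 1.92 on its set 225783_PM_at and 0.33 without that replicate. By role, the 7 sets of NEDD8 and its E1 and E2 were all higher by their means and all highest in that replicate, with a median that was 0.23 without it. The medians were 0.37 over 21 sets of the COP9 signalosome (12 higher) and 0.35 over 7 sets of CAND1, CAND2 and GLMN (5 higher), or −0.08 and −0.01 without that replicate. They were −0.09 over 26 sets of cullins, −0.08 over 6 sets of the RING subunits and −0.05 over 10 sets for NEDD8 removal and turnover. The brightest sets of CUL3 and RBX1 differed by less than 0.5 log2 between any pair of arrays. CUL3, scaffold of the BTB ligases, read 9.30 and 9.27 in the shDCUN1D1 arrays and 9.11 and 8.98 in the shGFP arrays on 201371_PM_s_at, a log2 difference of 0.24 (SE 0.31). RBX1, the RING partner of most cullins, read 6.80 and 7.03 in the shDCUN1D1 arrays and 7.28 and 7.03 in the shGFP arrays, a log2 difference of −0.24 (SE 0.56, adjusted p = 0.895 by limma).

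**Figure D5:**
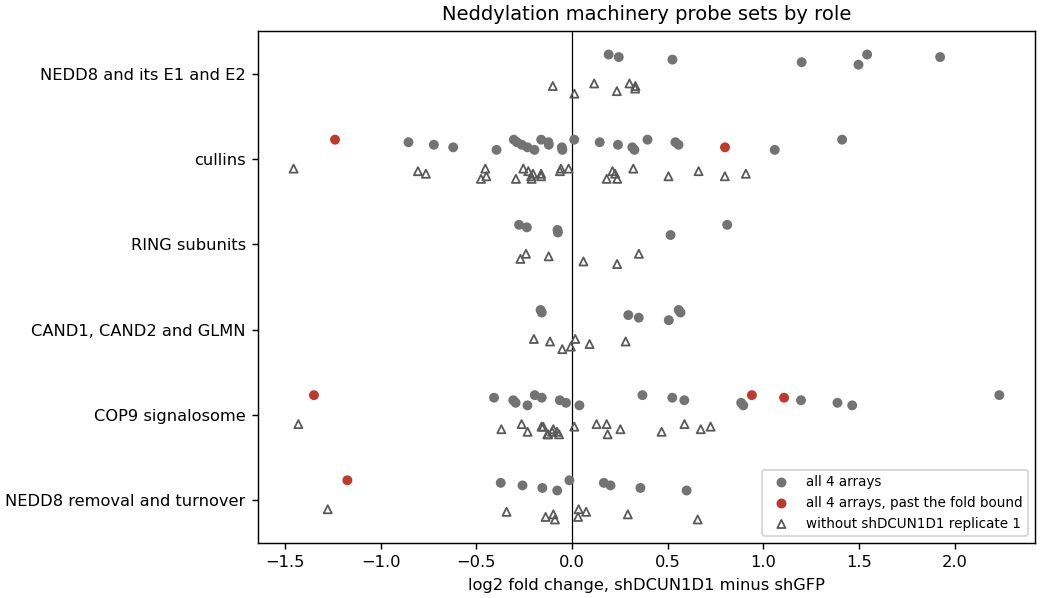
Difference between the groups (log2, shDCUN1D1 minus shGFP, horizontal axis) of the 77 probe sets of the neddylation machinery by role, with all 4 arrays as circles (red past the fold bound) and without shDCUN1D1 replicate 1 as open triangles. The 7 probe sets of NEDD8 and its E1 and E2 are all above 0 with all arrays, and without that replicate their median is 0.23.

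By pattern over the 4 arrays, the brightest DCUN1D1 set was resembled by sets of genes outside the pathway. The 3 nearest, by the Euclidean distance between values centred on their own means, were those of IGHM, an immunoglobulin heavy chain (0.06), TUT1, a terminal uridylyltransferase (0.06), and LINGO3 (0.07). In all, 69 probe sets of other genes lay within a distance of 0.2, while the other DCUN1D1 sets lay at 0.70 to 1.03.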

How the data were processed

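RNA of 4 samples was labelled as biotinylated cRNA and hybridised to single-channel Affymetrix arrays. The authors deposited 1 table with a log2 signal for each probe set and array. The processing notes of the submitters name Affymetrix Expression Console, the methods dChip with a smoothing spline, and the sources do not settle which made the values. The log2 scale was inferred from their range. The table used holds no detection calls, so nonspecific control sets served as background. An array has no read depth, and precision is limited by how few arrays there are. Signal includes nonspecific binding, and the nonspecific sets were themselves dimmer in shDCUN1D1. Differences at low signal need not be those of the transcript alone, and the part of the nonspecific signal in them was not tested.

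Gene names came from the platform annotation, and 40858 of the probe sets with 1 gene matched RefSeq gene IDs (0 symbols updated). The 54613 transcript probe sets were fitted together in limma 3.58.1 (R 4.3.3), with the prior variance depending on signal and without further scaling (array medians 1.53 and 1.61 in shDCUN1D1, 1.59 and 1.60 in shGFP). The 102 array controls were left out. P-values were adjusted over all probe sets. The fold bound is the lower limit of limma's 90% interval. Gene means were fitted likewise. The fits were tested on simulated data.

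Members and lists were chosen with earlier results of these data known. Named were all family probe sets, machinery genes past the bound, and the 3 sets most like the brightest DCUN1D1 set. NEDD8, UBE2F, CUL3 and RBX1 were chosen after their values were seen. Alternatives were other scalings, filters, variance models and bounds, the methods' t-test, a replicate block and leaving out each array. Probe and shRNA sequences were not used here.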

Additional observations from a re-analysis of the deposited data

How the results depend on the processing

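In all 17 alternatives the family probe sets had adjusted p of 0.246 or more, and 222678_PM_s_at (DCUN1D1) kept its direction in the 16 that gave it a value. Past a fold bound of 1.0 instead of 1.2 were 2 family sets, both lower (222678_PM_s_at at −0.75 and 238879_PM_at), and 1 gene mean, DCUN1D1 (−0.22). At that bound, all probe sets gave 2867 higher and 5904 lower and the neddylation machinery 7 higher and 10 lower. Over all 19774 gene means there were 1024 higher and 2013 lower. At a bound of 1.5 all probe sets gave 127 higher and 426 lower and the machinery 0 higher and 3 lower.

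Centred on the nonspecific controls, the counts were 3476 higher and 456 lower over all probe sets and 10 higher in the machinery. The differences turned positive for 222679_PM_s_at (0.10), 240781_PM_x_at (0.19), 212853_PM_at (0.13), 212855_PM_at (0.25), 239425_PM_at (0.26) and the means of DCUN1D1 (0.072) and DCUN1D4 (0.28). That scaling subtracts from each array the level of control sets that were dimmer in shDCUN1D1. Centred on the array median, the DCUN1D4 mean was 0.0082.

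With probe sets kept only above the nonspecific set of 20 G or C bases, 358 were higher and 586 lower, with 0 and 1 in the machinery, fewer sets being tested. Above the median signal, 1 machinery set was higher and 3 lower, against 444 and 1218 of all 27306 probe sets kept. These filters left 2 and 7 of the 15 family sets. The unmoderated standard error gave 332 higher, with 0 in the machinery. The methods' t-test, named there without reference to the arrays, gave 952 higher and 3000 lower, with 0 and 5 in the machinery. These counts are at an unadjusted p under 0.05, not past the fold bound. Without a variance trend, 4 machinery sets were higher and 5 lower, against 693 and 1845 of all probe sets. Where not stated, the cause was not tested.

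The deviations of arrays with the same replicate number were not correlated over the probe sets (−0.03). With 1 replicate difference in each group, this cannot settle whether the arrays were paired. With a replicate block, 222678_PM_s_at stayed at −0.75 (adjusted p = 0.654 by limma), 0 family sets passed the bound, and all probe sets gave 647 higher and 974 lower.

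With each array left out, the counts over all probe sets ranged from 63 (without shGFP replicate 2) to 4352 (without shDCUN1D1 replicate 2) higher and from 742 to 1997 lower. The family ranged from 0 to 1 in each direction, and the machinery from 0 to 19 higher, and it had 3 lower in each case, though not CUL1 238509_PM_at without shGFP replicate 2. The differences ranged from −1.02 to −0.47 for 222678_PM_s_at, −0.11 to 0.36 for 218583_PM_s_at, −0.081 to 0.21 for 242428_PM_at, −0.064 to 0.24 for 239648_PM_at, −0.34 to 0.0067 for 212853_PM_at, −0.084 to 0.43 for 212851_PM_at, −0.23 to 0.94 for 223151_PM_at, −0.23 to 0.16 for 239425_PM_at and −0.11 to 0.086 for the DCUN1D4 mean. In every array, 12 of the 15 family sets lay below the nonspecific set of 20 G or C bases, so low signal limits what they can show.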
